A study of Mus musculus with 3 samples.

Results

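The genes described here are those of MHC class II antigen presentation, 10 of the 27179 genes counted in mouse pro-B cells with and without the transcription factor Pax5. They were taken by name: the classical chains H2-Aa, H2-Ab1 and H2-Eb1, the invariant chain Cd74, the DM chains H2-DMa, H2-DMb1 and H2-DMb2, the DO chains H2-Oa and H2-Ob, and the transactivator Ciita. All 10 were found in the count table by their Entrez numbers and all 10 passed the filter on low counts. H2-Aa, H2-Ab1, H2-Eb1 and Ciita had under 10 counts in each Pax5-/- sample and passed through the wild type, where they were high. H2-DMb1 passed that way too, although its wild-type count was only 17. Pax5-/- sample 1 had 7 and sample 2 had 10, which fell short because the filter scales its minimum to library size.

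RNA was sequenced from 2 Pax5-/- samples, described as independently prepared and labelled male, and from 1 wild-type sample, labelled female. All were C57BL/6 bone marrow cells, selected for B220, a B-lineage form of the surface protein CD45, and grown on OP9 stroma, a feeder cell line. For both Pax5-/- samples the labels add an immunomagnetic removal of IgM+ cells on day 7, and for the wild type they name neither a day nor a removal. Genotype, sex and the stated IgM step therefore cannot be told apart in these data. The labels do not describe the Pax5 allele or say whether a sample pooled animals.

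Classical MHC class II molecules are pairs of an alpha and a beta chain that display peptides on the surface of B cells, dendritic cells and macrophages to CD4 T cells. The invariant chain occupies the peptide groove during assembly, DM then exchanges its remnant for antigen peptide in late endosomes, and DO, found mostly in B cells, binds DM and restrains it. Transcription of the classical chain genes relies on Ciita, a coactivator that does not bind DNA by itself but docks on RFX, CREB and NF-Y proteins held at the promoters. C57BL/6 mice carry a defective E alpha gene, so H2-Eb1 makes a beta chain without its classical partner.

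Library totals were 6487846 (Pax5-/- sample 1), 6697879 (Pax5-/- sample 2) and 6530057 counts (wild type). Where 3 counts follow a gene, they stand in the order Pax5-/- sample 1, Pax5-/- sample 2, wild type. CPM is the count scaled to the library size after TMM adjustment. A log2 fold change sets Pax5-/- against the wild type and is negative where Pax5-/- is lower; its SE comes from edgeR's quasi-likelihood test, and a gene is called where the Benjamini-Hochberg adjusted p over all genes tested is under 0.05. Only the 2 Pax5-/- samples give a spread between replicates, which leaves 1 residual degree of freedom, on the assumption that the wild type varies to the same extent. To this the edgeR tests and intervals add 3.15 prior degrees of freedom, borrowed from the spread of the other genes tested. The labelled cell type was checked with 12 pro-B markers, all of which were detected: Rag1 had 3737, 4621 and 2237 counts, Dntt 3280, 4231 and 1646, and Igll1 2887, 3697 and 5048. Of the 12, 5 were called higher and 5 lower in Pax5-/-, and Igll1 was called only with RLE, DESeq2 and other filters. Pax5 itself had 417, 551 and 1601 counts; with the allele not described, counts over the whole gene do not check the deletion. The Pax5-/- samples differed from each other in interferon-response genes, which were high in sample 1 and low in sample 2.

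The classical chains, the invariant chain, the DO beta chain and Ciita were lower in Pax5-/-, and the DM chains and the DO alpha chain were not called. Of the 10 genes, 6 were called lower, 0 higher and 4 were not called, while 18.1% of the 11783 genes tested were called at all, 8.55% lower and 9.53% higher. The median log2 fold change of the 10 was -2.82, against 0.01 over all genes tested. Of their 20 Pax5-/- values, only H2-DMb2 in sample 2 and H2-Oa in sample 1 lay above the wild type in CPM. Together the 10 genes held 452, 561 and 3877 counts, or 69.8, 82.4 and 605 CPM. With bulk RNA, fewer cells that express a gene and less RNA per cell cannot be told apart.

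**Figure D1:**
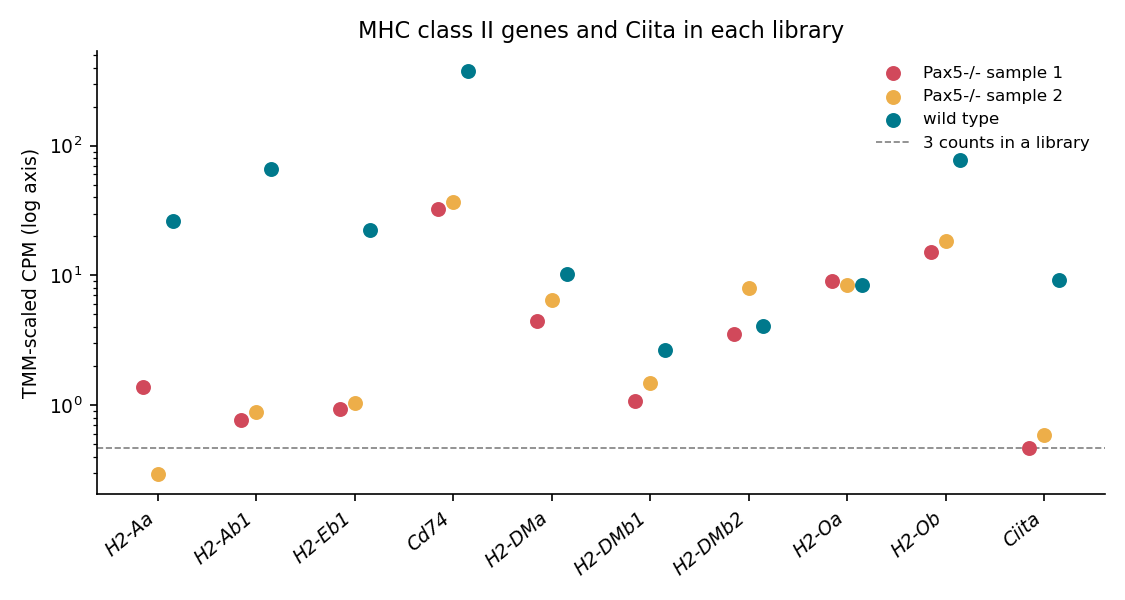
TMM-scaled CPM on a log axis for each of the 10 genes, 1 point for each of the 3 libraries, with a dashed line at 3 counts. The wild type stands far above both Pax5-/- samples for the classical chains, Cd74, H2-Ob and Ciita, and lies near them for H2-Oa and the DM chains.

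The promoters of this family share a short arrangement of letters, shown here because genes that were called and genes that were not both carry it. The Y box is bound by NF-Y and contains ATTGG, and the X box upstream is bound by RFX. RefSeq promoter windows (GRCm38.p6) were at hand for 7 of the 10 genes, with none for H2-Ab1, Cd74 and Ciita. In the 250 bases before the start site, TGATTGG was found in 6 of those 7 genes on either strand, against 7.23% of all 32851 windows. A stretch of AAC, then 20 to 35 other bases, then TGATTGG on the same strand was present in the same 6 genes, against 1.26% of all windows. These letters were chosen after the sequences of these genes had been read, so the shares describe the windows and test nothing. Capitals mark AAC, in the X box position, and TGATTGG, which contains the Y box core.
H2-Aa (chr17:34287855-34287914, minus strand): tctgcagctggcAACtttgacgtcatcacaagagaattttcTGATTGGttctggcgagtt
H2-Eb1 (chr17:34305766-34305824, plus strand): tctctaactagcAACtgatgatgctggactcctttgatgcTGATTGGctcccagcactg
H2-DMb1 (chr17:34153087-34153146, plus strand): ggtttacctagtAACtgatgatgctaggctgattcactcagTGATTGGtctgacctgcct
H2-DMb2 (chr17:34145116-34145175, plus strand): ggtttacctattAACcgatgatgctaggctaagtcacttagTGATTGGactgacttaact
H2-Oa (chr17:34092293-34092352, plus strand): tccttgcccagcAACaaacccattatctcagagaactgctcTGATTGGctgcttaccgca
H2-Ob (chr17:34238808-34238864, plus strand): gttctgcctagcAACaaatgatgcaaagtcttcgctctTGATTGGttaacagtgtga
H2-Eb2 (chr17:34325533-34325591, plus strand): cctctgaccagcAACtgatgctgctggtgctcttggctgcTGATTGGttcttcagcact
The gap between the capitals was 26 bases in H2-Aa, H2-DMb1, H2-DMb2 and H2-Oa, 25 in H2-Eb1 and in H2-Eb2, a beta chain gene outside the 10, and 23 in H2-Ob. H2-Oa, which was not called, and H2-Aa, which was called lower, thus have these capitals at the same spacing. Only 2 windows of H2-DMa were at hand, at the upstream starts of its longer models, and neither held TGATTGG. Any start further along H2-DMa was not examined, so its absence from the 6 genes rests on these windows alone. A match of letters is not evidence of binding.

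The classical chains were far lower in Pax5-/-. H2-Ab1 (Entrez 14961; chr17:34263227-34269418, mm10), the A beta chain, had 5, 6 and 426 counts. That is 0.827 ± 0.0775 CPM (SD, n = 2) against 66.4 CPM, and a log2 difference of -6.29 (SE 0.23, adjusted p = 0.00272, edgeR). Both Pax5-/- samples were close to the lower end of what the libraries can measure, since 3 counts correspond to 0.463, 0.441 and 0.468 CPM. At such counts the edgeR SE is too small. Counting error alone left the wild type at 44.4 to 162 times the pooled Pax5-/- samples (95% interval). On the log2 scale that range is wider than the edgeR interval of -6.91 to -5.67. DESeq2 gave SEs of 0.63 for H2-Ab1, 0.90 for H2-Aa and 0.80 for H2-Eb1. H2-Aa (Entrez 14960; chr17:34282744-34287823), the A alpha chain, had 9, 2 and 168 counts. Its log2 fold change was -4.95 (SE 0.58, adjusted p = 0.0136, edgeR), and the value depends on the sample used: -6.39 without sample 1 and -4.22 without sample 2. The CPM of H2-Aa in sample 1 was 4.73 times that in sample 2, with a 95% counting interval of 0.979 to 45.0, so the Pax5-/- samples could not be separated for this gene. H2-Eb1 (Entrez 14969; chr17:34305867-34316674), the E beta chain, had 6, 7 and 144 counts, and its log2 fold change was -4.49 (SE 0.31, adjusted p = 0.00503, edgeR). The 3 chains summed to 20, 15 and 738 counts, and no Pax5-/- value of any chain came near the wild type. H2-Ea, the E alpha gene annotated in RefSeq as a transcribed pseudogene, had 0 counts in all 3 libraries, and H2-Eb2 had 5, 4 and 8 and was not tested.

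Cd74 remained the most abundant gene of the group in every library and was lower in Pax5-/-. Cd74 (Entrez 16149; chr18:60803849-60812652) encodes the invariant chain, which is also a surface receptor for the cytokine MIF. It had 212, 251 and 2421 counts, or 34.8 ± 2.93 CPM (SD, n = 2) against 378. Its log2 fold change was -3.44 (SE 0.15, adjusted p = 0.00297, edgeR). Within a library, and per base of gene length, Cd74 stood at 9.25 and 16.0 times the summed classical chains in the Pax5-/- samples and at 2.85 times in the wild type. The invariant chain thus made up more of the remaining class II RNA relative to the classical chains in both Pax5-/- samples, a ratio that library scaling cannot move. As a share of all counts of the 10 genes, Cd74 was 46.9%, 44.7% and 62.4%.

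Ciita was lower as well. Ciita (Entrez 12265; chr16:10480014-10531064), the transactivator, had 3, 4 and 59 counts, and its log2 fold change was -4.08 (SE 0.46, adjusted p = 0.0127, edgeR). DESeq2 gave a larger SE of 1.18 at these low counts. By its values it was the least abundant of the 10 per base of length in every library, at 0.0813 and 0.103 CPM per kb in Pax5-/- and 1.62 in the wild type. Its counting interval overlapped that of the next gene above it in every library. Ciita has alternative promoters that serve different cell types, and counts per gene do not tell them apart. Part of its exons (3.45% of exonic bases in GENCODE M21) overlaps Dexi on the other strand. Dexi had 100, 88 and 51 counts, a log2 fold change of 0.83 (adjusted p = 0.113, edgeR), with its highest values where Ciita was low. Among the 9920 tested genes outside the 10 with a mean of at least 5 CPM, the profile over the 3 libraries nearest to that of Ciita by Euclidean distance of centred log2 CPM belonged to a gene without a matched symbol. Myadm, Psrc1, Dab2ip and Cd79a came next, at distances of 0.0748, 0.121, 0.175 and 0.185. Cd74 lay at 0.0812, and with 3 libraries such a likeness says little more than that the fold was similar in both Pax5-/- samples.

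DM showed no called change. H2-DMa (Entrez 14998; chr17:34119693-34139101), the DM alpha chain, had 29 and 44 counts against 66, below the wild type in both Pax5-/- samples. The log2 fold change was -0.91 (SE 0.35, adjusted p = 0.156, edgeR), with a 95% interval of the fit from -1.88 to 0.06. H2-DMb1 (Entrez 14999; chr17:34153191-34160229), a DM beta chain, had 7 and 10 counts against 17, and its log2 fold change was -1.04 (95% interval -2.55 to 0.46, adjusted p = 0.257, edgeR). H2-DMb2 (Entrez 15000; chr17:34143229-34151553), the neighbouring beta chain gene, had 23 and 54 counts against 26, with the wild type between the Pax5-/- samples. Its log2 fold change of 0.50 (95% interval -1.18 to 2.19, adjusted p = 0.600, edgeR) rests on sample 2: it was 0.97 without sample 1 and -0.19 without sample 2. The CPM of H2-DMb2 in sample 1 was 0.448 times that in sample 2 (95% counting interval 0.262 to 0.742), the only one of the 10 genes whose Pax5-/- libraries differed beyond counting error. The 2 beta chain genes share sequence: 369 distinct 50-base words, 22.7% of those in H2-DMb1 transcripts and 21.2% of those in H2-DMb2 transcripts, occur in both. Reads split between them are uncertain, and with both summed the log2 fold change was 0.07 (SE 0.52, adjusted p = 0.936, edgeR). The intervals do not show that DM was unchanged, since that of H2-DMa reaches -1.88, but for each DM chain they lie above the fitted values of all 3 classical chains. H2-DMa overlaps Brd2 on the other strand over 10.4% of its exonic bases, and Brd2 had 2428, 2583 and 2545 counts.

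The DO chains went apart. H2-Ob (Entrez 15002; chr17:34238905-34245908), the DO beta chain, had 99, 126 and 496 counts, or 16.9 ± 2.28 CPM (SD, n = 2) against 77.4. Its log2 fold change was -2.19 (SE 0.18, adjusted p = 0.00661, edgeR). H2-Oa (Entrez 15001; chr17:34092379-34095234), the DO alpha chain, had 59 and 57 counts against 54, 8.74 ± 0.519 CPM (SD, n = 2) against 8.42, and its log2 fold change was 0.05 (SE 0.28, 95% interval -0.70 to 0.81, adjusted p = 0.908, edgeR). H2-Ob was called in all 7 alternative tests and H2-Oa in none, and the difference between the chains was not tested. Per base of length, H2-Ob stood at 3.61 times H2-Oa in the wild type and at 0.659 and 0.868 times in the Pax5-/- samples. The 95% counting intervals of the chains were apart in the wild type. They overlapped in both Pax5-/- samples, where the higher chain could not be told. The antisense gene BC051537 overlaps 22.8% of the exonic bases of H2-Oa and had 3, 4 and 2 counts of its own.

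**Figure D2:**
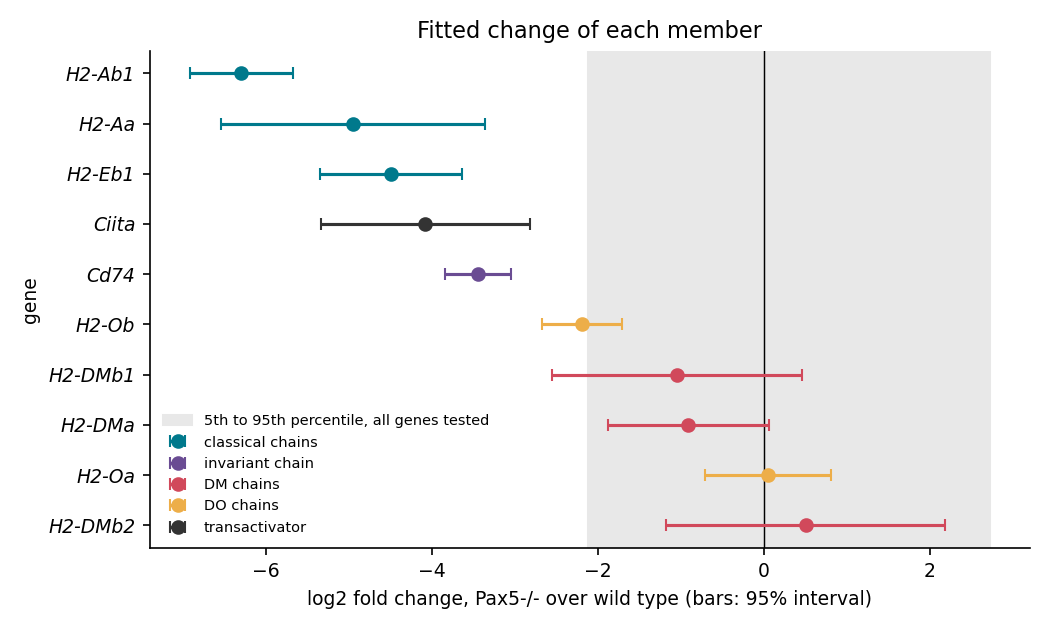
Fitted log2 fold change of each gene, Pax5-/- over wild type, with bars for the 95% interval and colours for the role; the grey band spans the 5th to 95th percentile of all genes tested (-2.12 to 2.72). The classical chains, Ciita and Cd74 lie wholly left of the band, H2-Ob lies at its edge, and the points of the DM chains and H2-Oa lie inside it.

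The order of levels per base of length differed between the genotypes. In the wild type Cd74 was highest at 267 CPM per kb (95% counting interval 256 to 278), followed by H2-Ab1 at 55.7 (50.5 to 61.2), H2-Ob at 29.0 (26.5 to 31.6) and H2-Aa at 24.5 (20.9 to 28.5). H2-Eb1 at 13.5 and H2-DMa at 13.2 followed, then H2-Oa at 8.03, H2-DMb2 at 5.16, H2-DMb1 at 2.07 and Ciita at 1.62. Counting intervals of neighbours overlapped for H2-Ob with H2-Aa, H2-Eb1 with H2-DMa, H2-DMa with H2-Oa, H2-Oa with H2-DMb2, and H2-DMb1 with Ciita. In both Pax5-/- samples Cd74 was again highest, at 23.1 and 26.1 CPM per kb. Next came H2-Oa, H2-DMa, H2-Ob and H2-DMb2, from 4.52 to 8.68 in sample 1 and from 6.93 to 10.1 in sample 2, in an order that differed between the samples and with overlapping intervals between neighbours. The classical chains and H2-DMb1 were below them, from 0.275 to 1.30 CPM per kb over both samples. The summed classical chains stood at 4.59 times the summed DM chains in the wild type and at 0.226 and 0.0835 times in the Pax5-/- samples.

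Along chromosome 17 the lower genes were neighbours. The interval from H2-Oa to H2-Eb1 (chr17:34092379-34316674) held 13 genes with a RefSeq match that lay wholly inside it. All of them were tested, and 8 are class II genes. Genes that reach past an end of the interval, such as BC051537, are left aside. H2-Ob, H2-Ab1, H2-Aa and H2-Eb1, which are consecutive among the tested genes at one end, were called lower. H2-Oa, H2-DMa, H2-DMb2 and H2-DMb1, at the other end, were not called. The 5 tested genes that are not class II lie among them, and none was called lower. Brd2, a bromodomain protein, had a log2 fold change of -0.07 (SE 0.11). Psmb9 and Psmb8, subunits of the immunoproteasome, were at -0.41 (SE 0.32) and -0.06 (SE 0.19), and Tap1, a subunit of the peptide transporter for class I, at 0.03 (SE 0.46). Tap2, its partner, had 1173 and 1199 counts against 518 and was called higher, at 1.14 (SE 0.14, adjusted p = 0.0148, edgeR), a call lost when the spread was not estimated but assumed, as a coefficient of variation between replicates of 0.4.

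**Figure D3:**
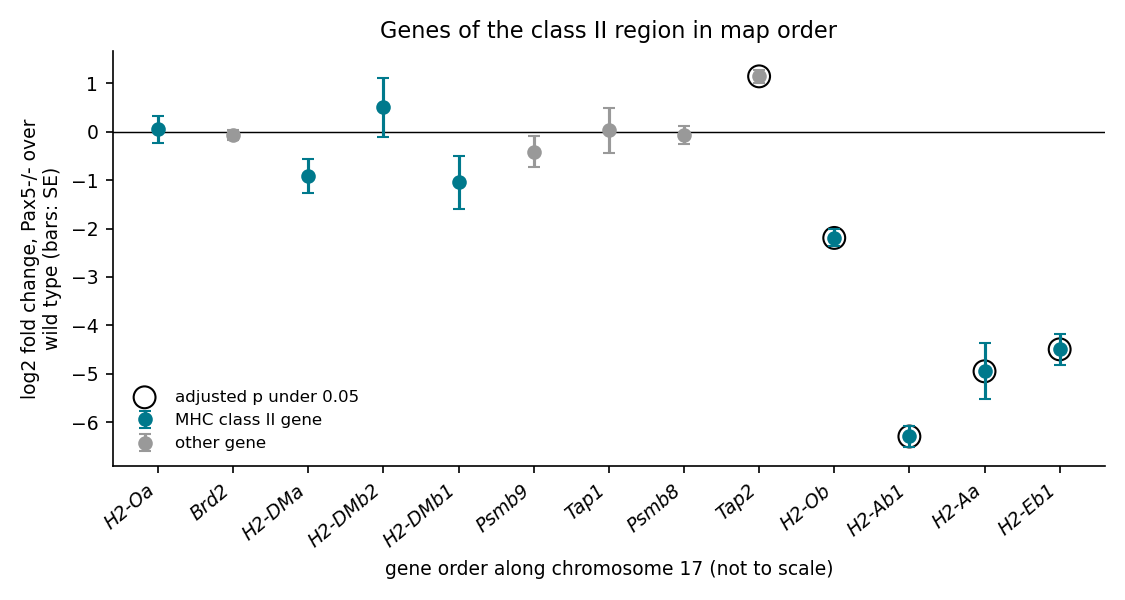
Log2 fold change (Pax5-/- over wild type, bars: SE) of the 13 tested genes from H2-Oa to H2-Eb1 in map order, not to scale; rings mark an adjusted p under 0.05. The 4 class II genes at the right are called lower, and Tap2, immediately before them, is called higher.

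Factors that act at class II promoters changed little or in both directions. Of 7 genes, 1 was called higher, 2 lower and 4 were not called, and their median log2 fold change was -0.51. The RFX subunits Rfx5, Rfxap and Rfxank were not called, at -0.25 (SE 0.21), -0.57 (SE 0.18) and -0.51 (SE 0.23). Rfx5 had 176 and 150 counts against 188. Of the NF-Y subunits, Nfya was called higher, with 1524 and 1723 counts against 897 (0.80, SE 0.13), while Nfyb (-0.78, SE 0.15) and Nfyc (-0.81, SE 0.16) were called lower. The calls of Nfyb and Nfyc were lost with library size alone and with DESeq2, that of Nfyc also with limma-voom. Among 5 coactivators that work with Ciita, Smarca4, the BRG1 ATPase of chromatin remodelling, fell with 3711 and 4239 counts against 9249 (-1.27, SE 0.10), and the other 4 were not called. Under the assumed spread of 0.4, Nfya, Nfyb, Nfyc and Smarca4 were no longer called.

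Genes known to regulate Ciita were lower in part. Of 11, 5 were called lower, 0 higher and 6 were not called, with a median of -1.62. Irf4, a transcription factor of B-cell maturation, had 96 and 130 counts against 2148 (-4.30, SE 0.20, adjusted p = 0.0032, edgeR). Irf8, which with PU.1 acts at the B-cell promoter of Ciita, had 425 and 479 counts against 2358 (-2.44, SE 0.13, adjusted p = 0.00379, edgeR). Pax5 (-1.78, SE 0.19), Tcf3 (-1.63, SE 0.12) and Ebf1 (-1.62, SE 0.16) were the other called genes, and these 3 calls were lost under the assumed spread. Spi1, which encodes PU.1, had 629 and 783 counts against 470 and was not called (0.53, SE 0.18, adjusted p = 0.120, edgeR). Prdm1, a repressor of Ciita in plasma cells, had 2 and 3 counts against 19 and was not called (adjusted p = 0.0543, edgeR). It was called with RLE, limma-voom and the assumed spread of 0.4. A link between any of these regulators and the Ciita level was not tested.

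The endosomal part of the pathway was divided. Of 11 genes of antigen processing, 4 were called higher, 4 lower and 3 were not called, with a median log2 fold change of -0.32. Ifi30, the thiol reductase GILT that opens disulfide bonds of antigens in endosomes, had 28 and 37 counts against 1044 (-5.05, SE 0.19, adjusted p = 0.00272, edgeR). Its fold was of the size of the classical chains. Ctsh, a lysosomal protease, had 5 and 9 counts against 41 (-2.58, SE 0.50), a call lost with DESeq2 and with library size alone. Ctsl, a cysteine protease that trims the invariant chain in thymic epithelium, rose from 23 counts to 87 and 114 (2.07, SE 0.33). Lgmn, the asparaginyl endopeptidase, rose from 296 to 988 and 846 (1.58, SE 0.20). Both of these calls were lost under the assumed spread, and that of Ifi30 was kept. Ctss, the protease that cleaves the invariant chain in B cells, had 840 and 361 counts against 822 and was not called (-0.49, SE 0.55, adjusted p = 0.566, edgeR).

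Genes of class II turnover and costimulation were mostly at low counts. Of 3 turnover genes 1 was called higher, 0 lower and 2 were not called. Marchf8, a ubiquitin ligase of the family that removes class II from the surface, had 68 and 98 counts against 23 and was called higher (1.79, SE 0.37, adjusted p = 0.0467, edgeR), a call lost with DESeq2, limma-voom, library size alone and the assumed spread. Cd83, which opposes that removal, had 3 and 0 counts against 19 and was not called (adjusted p = 0.0961, edgeR) except with the assumed spread of 0.4. Of 8 costimulatory genes 4 were tested and 0 were called. Cd86 had 26, 15 and 9 counts, Cd40 12, 0 and 46, and Icosl 44, 12 and 2, and the assumed spread of 0.4 called Cd40 and Icosl. Of 4 genes that act with Cd74 as a surface receptor 3 were tested and 1 was called. Cd44, its signalling partner, fell from 997 counts to 123 and 106 (-3.17, SE 0.18, adjusted p = 0.00404, edgeR). Its ligand Mif, a gene with processed copies whose count is uncertain, had 1026 and 796 counts against 1562 and was not called (-0.82, SE 0.22, adjusted p = 0.0754, edgeR) except with DESeq2.

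**Figure D4:**
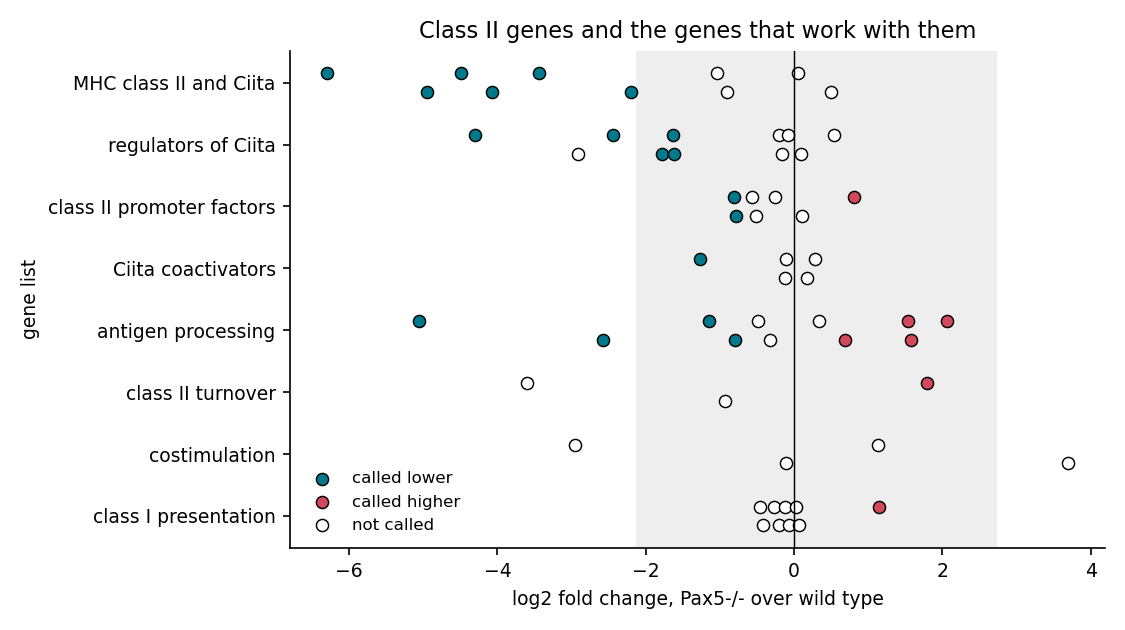
Log2 fold change (Pax5-/- over wild type) of each tested gene, by list, with filled points for called genes; the grey band spans the 5th to 95th percentile of all genes tested. Among genes outside class II, only Ifi30 and Irf4 lie to the left of Ciita (-4.08), and antigen processing holds genes called in both directions.

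Class I presentation and the interferon response showed other patterns than class II. Of 9 class I genes, 1 was called higher (Tap2), 0 lower and 8 were not called, with a median log2 fold change of -0.13. Nlrc5, the relative of Ciita that drives class I genes, had 1110 and 623 counts against 803 (0.07, SE 0.41, adjusted p = 0.917, edgeR). The class I median was 0.20 in sample 1, with 7 of 9 genes above the wild type, and -0.56 in sample 2, with 1 of 9 above it. Of 12 genes of the type I interferon response, 12 were above the wild type in Pax5-/- sample 1 and 0 in sample 2, and 0 were called. Irf7, a transcription factor of that response, had 2361, 77 and 280 counts and the antiviral gene Rsad2 1576, 10 and 121. With the assumed spread of 0.4, which ignores the difference between the Pax5-/- samples, Rsad2, Ifit1 and Oasl2 were called. The median log2 ratio to the wild type was 2.04 in sample 1 and, over the 10 genes with counts there, -3.36 in sample 2. For the 10 class II genes it was -2.93 and -2.71. The low class II level was present both in the sample with high and in the sample with low type I interferon-response RNA. A link between the interferon response and the class II level was not tested. Of 14 genes of the interferon gamma pathway 12 were tested, with 1 called higher, 1 lower and 10 not called. These genes also differed between the Pax5-/- samples: 7 of the 12 were above the wild type in sample 1, with a median log2 ratio of 0.14, and 2 in sample 2, with a median of -1.23 over the 11 with counts there. Those called encode the receptor chains: Ifngr1 was higher (1.57, SE 0.14) and Ifngr2 lower (-0.72, SE 0.15), the latter lost with DESeq2, limma-voom and library size alone and both lost under the assumed spread.

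**Figure D5:**
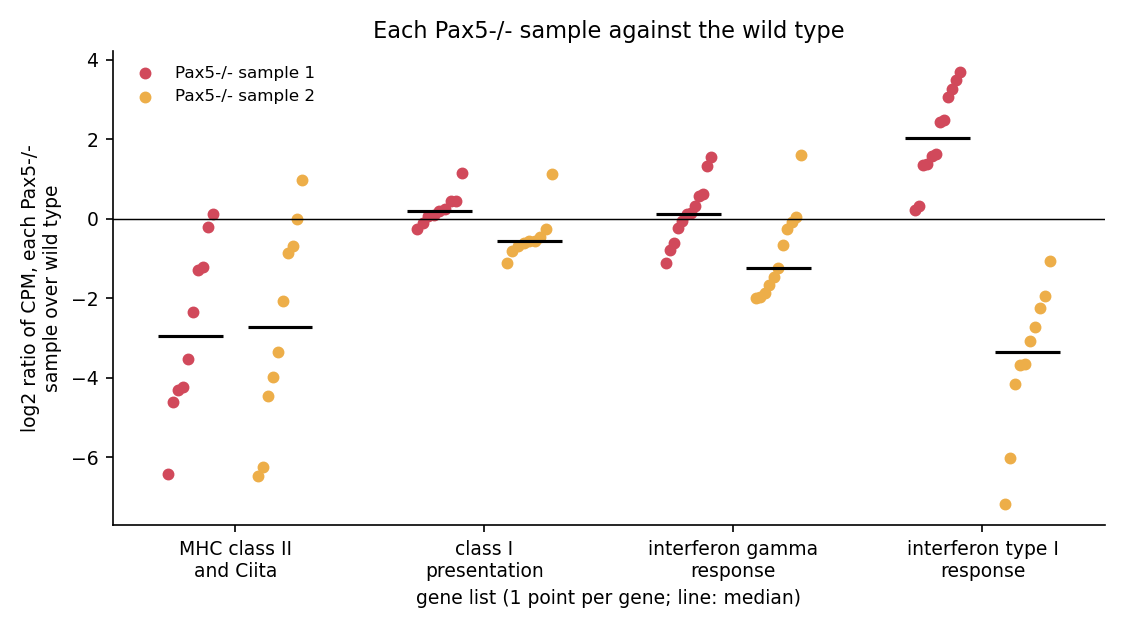
Log2 ratio of CPM of each Pax5-/- sample to the wild type, 1 point per tested gene with counts in both libraries, with the median as a line. Type I interferon genes lie above 0 in sample 1 and below 0 in sample 2, while the class II genes have medians of -2.93 and -2.71.

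Markers of other cells that carry class II were counted beside these results. Of 12 markers of later B cells, 10 were tested and all 10 were called lower, and the 12 summed to 2017, 1641 and 5833 CPM. Of these calls, that of Cd22 was lost with library size alone and DESeq2 and that of Ighm under the assumed spread of 0.4. Igkc, the kappa light chain constant gene, had 54 and 30 counts against 3927. Ms4a1, Iglc1, Iglc2, Cd55 and Fcer2a had 0 counts in both Pax5-/- samples, with 442, 431, 97, 78 and 2 in the wild type. Light-chain transcripts thus moved with the class II genes, the wild type is the sample without a stated IgM depletion, and their part in the class II difference was not tested. Dendritic markers summed to 591, 525 and 309 CPM. Of these 10 genes 6 were tested, all above the wild type in both Pax5-/- samples, and 3 (Flt3, Ccr9 and Siglech) were called higher. Xcr1 had 12, 12 and 3 counts and Itgax 4, 19 and 1, and neither was called. Clec9a and Cd209a were at 0 in all libraries, with Batf3 at 0, 0 and 1 and Zbtb46 at 2, 3 and 2. Ly6d, also among the 10, made up most of the wild-type sum and was not called (log2 fold change 0.20, adjusted p = 0.418, edgeR). Of 10 macrophage markers 5 were tested and 2 (Ccr2 and Lyz2) were called higher. The calls of Siglech and Lyz2 were lost with limma-voom, that of Lyz2 also under the assumed spread of 0.4. The macrophage markers summed to 1288 and 1151 CPM against 24.5 CPM, in Pax5-/- nearly all from Ccr2, and Fcgr1, C1qa and C1qb were at 0 in all libraries. Stromal markers, which the OP9 layer could carry over, summed to 8.18 and 6.76 CPM against 17.8 CPM, with 4 of 8 tested, 0 called, and Lum and Dcn at 0 in all libraries. The stromal gene Cxcl12 (18, 7 and 60 counts) was called lower with RLE, with no filter and with the assumed spread of 0.4. The part of these cell types in the class II difference was not tested either.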

How the data were processed

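RNA sequencing of 2 Pax5-/- samples and 1 wild-type sample was analysed, grouped by the genotype in the titles. The deposited values are raw counts per Entrez gene, made by the authors with featureCounts against mm10, per the submitters' processing notes. Which aligner, program version, annotation and strandedness they used is not given in the sources used here, so reads of overlapping genes on opposite strands cannot be separated. The file headers also give a gene length, in no other unit than bases, used for levels per kb. The series table and the sample files held equal counts in all 27179 genes.

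Symbols and coordinates came from RefSeq GRCm38.p6 by Entrez number (25275 matched, 93.0%); unmatched genes stayed in the tests. Genes were kept by filterByExpr (minimum count 10), scaled by TMM (factors 1.00, 1.018 and 0.983) and tested with edgeR 4.0.16 in R 4.3.3 by its quasi-likelihood test (glmQLFit, then glmQLFTest), adjusted by Benjamini-Hochberg over all genes tested. SE is the coefficient over the square root of F, and at few counts, as for H2-Ab1, it can fall below counting error. Intervals on counts are exact 95% Poisson or Clopper-Pearson and, like the floor of 3 counts, cover counting error only. Shared 50-base words and exon overlaps were counted in GENCODE M21 (GRCm38). Alternatives were RLE, library size, other filters, DESeq2 1.42.0, limma-voom (limma 3.58.1), an assumed biological coefficient of variation of 0.4 and leaving out each Pax5-/- sample.

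The members and lists were chosen with earlier results of these data known, from general knowledge of antigen presentation. Named genes were the members, up to 4 called genes per list by size with a mean of at least 1 CPM (or the 2 smallest p where none was called), a set of regulators and neighbours, the genes of the class II interval and the 5 nearest to Ciita; other genes were named after their values were seen. Single values of some list genes are not reported here.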

Additional observations from a re-analysis of the deposited data

How the results depend on the processing

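The 6 genes called lower, and 0 called higher, were the counts in all 7 alternative tests of the class II genes: RLE, library size alone, no filter, a minimum count of 30, DESeq2, limma-voom and an assumed biological coefficient of variation of 0.4. The highest adjusted p over these tests was 0.0235 for H2-Aa, 0.0118 for H2-Ab1, 0.0147 for H2-Eb1, 0.0113 for Cd74, 0.0170 for H2-Ob and 0.0194 for Ciita. The median log2 fold change of the class II genes was -3.44 with a minimum count of 30, because H2-DMb1 then left the test. Over all genes, 1206 were called with the assumed biological coefficient of variation of 0.4, against 2130, and that setting ended the calls of Nfya, Nfyb, Nfyc, Smarca4, Pax5, Ebf1, Tcf3, Ctsl, Lgmn, Marchf8, Tap2, Ifngr1, Ifngr2, Ctsb, Ctsd, Ctsz, Cst3, Il7r, Rag1, Dntt, Vpreb1, Cd79b, Ptprc, Ighm and Lyz2, but not those of Irf4, Irf8, Ifi30, Ctsh and Cd44. Leaving out a Pax5-/- sample leaves 1 sample a group, so only values were computed: the median of the class II genes ranged from -2.93 to -2.71, and no count of calls could be given. Summing H2-DMb1 and H2-DMb2 was chosen after seeing the data. No paired analysis was made, since the sample titles describe no pairing between the genotypes. The depth limits H2-Aa, H2-Ab1, H2-Eb1 and Ciita, at 2 to 9 counts per Pax5-/- sample, and the spread between the Pax5-/- samples, beside depth, limits what can be said of the DM chains.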
